A study of Homo sapiens with 9 samples.

Results

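TERT encodes the catalytic protein subunit of telomerase, the reverse transcriptase that adds telomeric repeats to chromosome ends. The locus was taken as chromosome 5 from 1253001 to 1296000 (hg19) with 500 kb on both sides, given by position and not by any measured value. It held 1043 bins of 1 kb out of 3137207 in the tables, of which 43 lay in TERT and 1000 in the flanks. Exon 2, the longest exon of the gene, lies near 1293401 to 1294800 and touches 2 bins. The place of the other exons on this build was not used here, so the remaining 41 bins of TERT hold introns and the other, shorter exons together, and are called the rest of TERT.

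Most somatic cells keep TERT silent, and cells that must divide without limit restore telomerase in some way. RPE1 cells come from retinal pigment epithelium and were immortalised by an introduced TERT cDNA, a copy of the messenger RNA without introns, and so it should carry exon sequence of TERT at a site other than chromosome 5. HCT116 is a colorectal carcinoma line that was not made in this way. Reads from such a cDNA would map back to the exons of the native gene and not to its introns, and exon 2 is the exon in which a 1 kb bin would gain most.

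Both lines were growing without synchronisation and without a drug other than the EdU pulse, which labels DNA made during the pulse. Cells were sorted into early, mid and late S phase, and nascent DNA was sequenced from each fraction. RPE1 gave 2 sets of 3 libraries and HCT116 gave 1 set of 3, 9 libraries in all. Column totals ran from 6170299 to 22930078 reads. The tables carry no column names, so the 3 columns of a set are called A, B and C by position, and none is given to a fraction. The labels do not say that a letter stands for the same fraction in every set. Comparisons of a column between sets therefore rest on its position alone. Nothing in the labels says that the RPE1 sets came from separate cultures, so their spread may be technical. HCT116, as 1 set, has no replicate error, and with 2 sets against 1 no p-value across sets was computed. Ratios are given with exact 95% intervals, which cover counting error only.

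The summed reads of TERT itself were compared with its flanks first, since a gain or loss of the native gene alone would move all of its bins. TERT held 545 and 1129 reads in RPE1 sets 1 and 2, and 496 in HCT116. Per bin this was 12.7, 26.3 and 11.5 reads, against 9.41, 20.1 and 8.96 in the flanks. TERT thus stood above its flanks by a like factor in every set, at 1.35 (interval 1.23 to 1.47) and 1.31 (1.23 to 1.39) in RPE1 sets 1 and 2, and 1.29 (1.17 to 1.41) in HCT116. The RPE1 mean was 1.33 ± 0.028 (SD, n = 2). Set against HCT116, the level of TERT over its flanks was 1.05 times in RPE1 set 1 (0.921 to 1.19) and 1.01 times in RPE1 set 2 (0.910 to 1.13). Over the gene as a whole, therefore, no difference between the lines in the level over the flanks was detectable at this depth. A gain or loss that also takes in the flanks would not show in this ratio. Against all autosomal bins, TERT stood at 1.10, 1.46 and 1.28 in RPE1 set 1, set 2 and HCT116. The flanks stood at 0.820, 1.12 and 0.991, so HCT116 lay between the RPE1 sets in both.

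Much of the excess of TERT over its flanks came from 2 neighbouring bins of TERT, from 1272001 to 1274000. The first held 38, 91 and 45 reads in RPE1 set 1, set 2 and HCT116, in that order, and the second held 80, 148 and 61. Together they took 21.7, 21.2 and 21.4% of all TERT reads, so they were high in both lines alike. They were the only TERT bins over 5 times the autosomal median in any set. With such bins and bins empty in all sets left out of gene and flanks, TERT stood at 1.17 (1.06 to 1.29), 1.14 (1.06 to 1.21) and 1.10 (0.993 to 1.22) times its flanks. The median TERT bin held 10.0, 21.0 and 9.0 reads, so that single bins carry a large counting error.

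**Figure D1:**
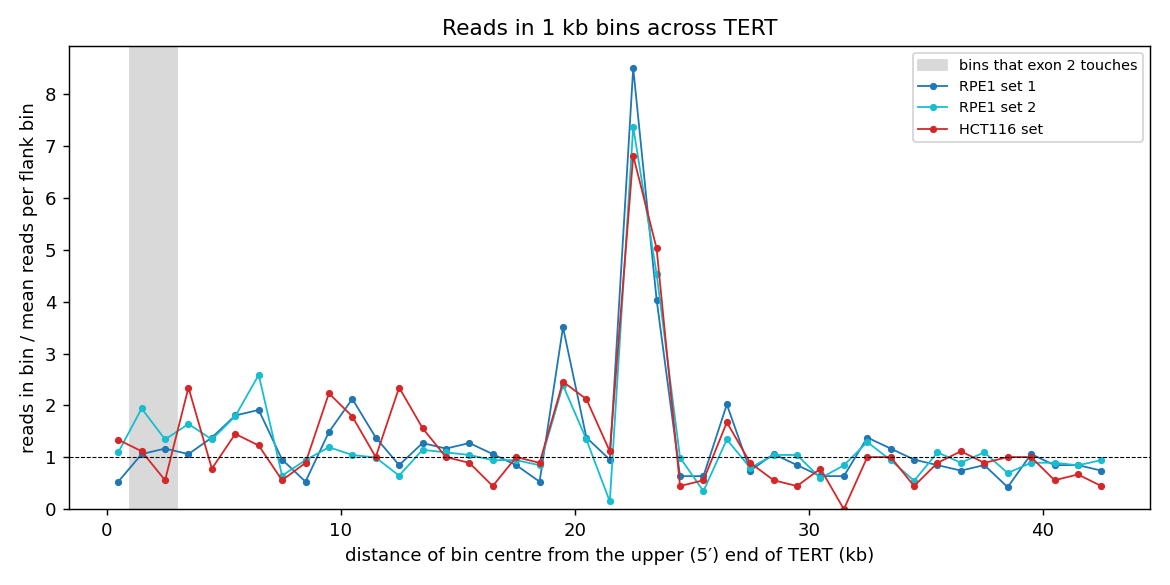
Reads in each 1 kb bin of TERT divided by the mean reads of a flank bin of the same set, against distance from the 5′ end of the gene in kb; each line is 1 set with its columns summed, and the grey band marks the 2 bins that exon 2 touches. The 2 bins with 38, 91 and 45 and with 80, 148 and 61 reads form a peak shared by all sets, while the exon 2 bins lie within the range of other bins.

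Exon 2 was then set against the rest of TERT, which is where an intronless copy would separate the lines. Its bins held 21 and 66 reads in RPE1 sets 1 and 2, and 15 in HCT116, or 10.5, 33.0 and 7.5 reads per bin. The rest of TERT held 12.8, 25.9 and 11.7 reads per bin. Exon 2 was therefore at 0.822 (0.504 to 1.27) and 1.27 (0.977 to 1.63) times the rest of TERT in RPE1 sets 1 and 2, and at 0.639 times (0.355 to 1.07) in HCT116. Both RPE1 sets had a higher value than HCT116, and the intervals of the 3 sets overlapped.

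RPE1 set 1 had 1.29 times the exon 2 level of HCT116, with an interval of 0.623 to 2.71 that includes 1. RPE1 set 2 had 1.99 times that level, with an interval of 1.11 to 3.79. The mean was 1.64 ± 0.499 (SD, n = 2). Both ratios share the same 15 HCT116 reads, so they are not independent, and the SD leaves out the counting error of those reads. The RPE1 sets differed from each other by 1.55 times (0.924 to 2.70), a difference about as large as that between the lines. With the reads of both RPE1 sets added, the ratio was 1.76 (0.998 to 3.31). Against the rest of TERT, an excess in RPE1 beyond the counting error was therefore seen in RPE1 set 2 alone. The difference between the RPE1 sets themselves had an interval that includes 1.

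The 2 exon 2 bins did not do the same. The lower bin, from 1293001 to 1294000, held 11, 27 and 5 reads in the same order of sets, and gave 2.02 (0.641 to 7.46) and 2.44 (0.920 to 8.17) times the HCT116 level. The upper bin, from 1294001 to 1295000, held 10, 39 and 10 reads and gave 0.918 (0.340 to 2.48) and 1.76 (0.856 to 4.00). More of exon 2 lies in the upper bin than in the lower, by its span of about 1293401 to 1294800. The ratios were nonetheless higher in the lower bin, and every one of these single-bin intervals includes 1. The bin above them, from 1295001 to 1296000, which holds the start of the gene by the interval used here, held 5, 22 and 12 reads.

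Arithmetic gives the scale on which to read these ratios. Exon 2 fills about 70.0% of its 2 bins, so 1 extra copy of the exon beside 2 native copies would raise the pair to 1.35 times, 2 extra copies to 1.7 times and 3 to 2.05 times, if all copies were recovered alike. The interval of RPE1 set 1 takes in all of these values and 1 itself. That of RPE1 set 2 takes in the same values without 1. The number of copies could not be told from these counts.

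**Figure D2:**
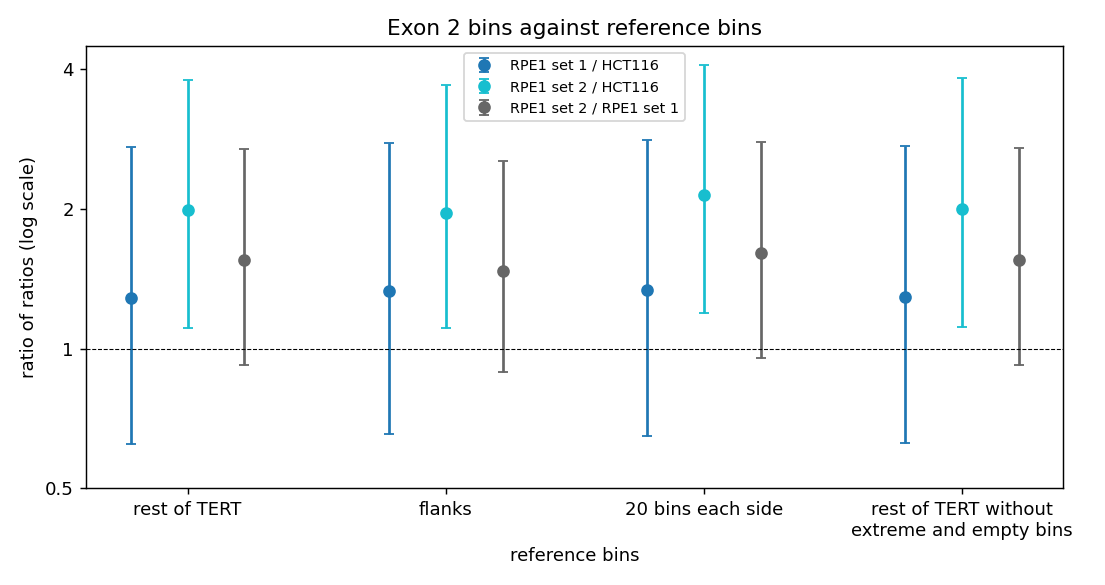
Ratio of the exon 2 bins to reference bins in 1 set over the same ratio in another set, on a log axis, for 4 choices of reference bins; points are ratios and bars are exact 95% intervals for counting error. RPE1 set 1 over HCT116 spans 1 with every reference, RPE1 set 2 over HCT116 lies above 1 with every reference, and the RPE1 sets differ from each other by 1.47 to 1.60 times.

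The choice of reference bins changed these values little. Against the flanks, the ratios to HCT116 were 1.33 (0.654 to 2.78) and 1.96 (1.11 to 3.70). Against the 20 bins on each side of exon 2 they were 1.34 (0.648 to 2.82) and 2.14 (1.19 to 4.09). Without the 2 high bins they were 1.29 (0.625 to 2.74) and 2.00 (1.11 to 3.83). With the RPE1 sets added, the ratios for these references were 1.76 (1.01 to 3.28), 1.87 (1.06 to 3.52) and 1.77 (1.00009 to 3.33). These intervals lie just above 1, whereas that against the rest of TERT includes it.

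To see how common such a ratio is, every adjacent pair of 1 kb bins on the autosomes with at least 10 HCT116 reads was treated like the exon 2 pair, over the 20 bins on each side. The exon 2 pair was at least 25% above HCT116 in both RPE1 sets. So were 288079 of 2487670 pairs, or 11.6%. Among pairs with 10 to 20 HCT116 reads, where the exon 2 pair lies with its 15, the share was 17.1%. The exon 2 pair was not at least 50% above HCT116 in both sets, as 3.53% of pairs were. The limit on HCT116 reads drops pairs that are low in HCT116, here and elsewhere. The ratios of a pair in both RPE1 sets share its HCT116 reads, so a low HCT116 count raises both. Many other pairs of the autosomes thus passed the limit of 25% that the exon 2 pair passed. That limit lies below both exon 2 ratios, 1.34 and 2.14, so these shares do not say how many pairs reached them.

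The RPE1 sets placed the exon 2 pair differently among these pairs. Its ratio in RPE1 set 1, 1.34, lay between the third quartile of 1.23 and the 95th percentile of 1.70. Its ratio in RPE1 set 2, 2.14, lay above the 95th percentile of 1.62. The ratio between the RPE1 sets, 1.60, lay between the third quartile of 1.23 and the 95th percentile of 1.72. Neighbouring pairs share a bin, and these percentiles describe the libraries and are not a test.

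**Figure D3:**
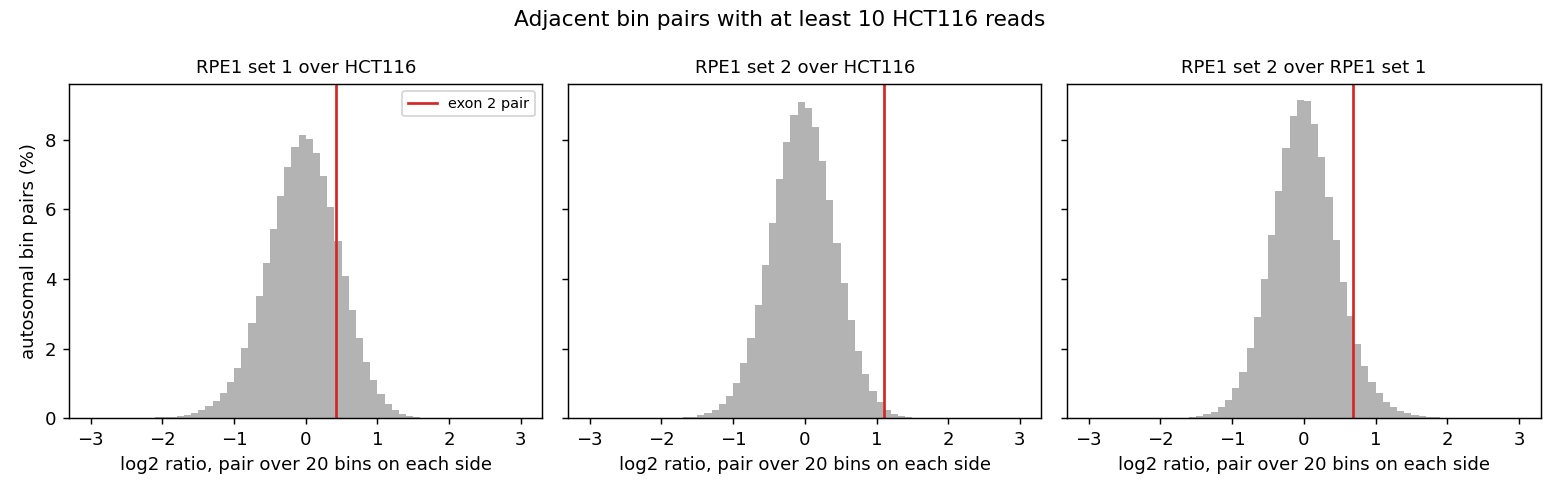
Distribution of the log2 ratio of adjacent bin pairs over the 20 bins on each side, for 1 set over another, as a percentage of autosomal pairs with at least 10 HCT116 reads; the red line marks the exon 2 pair. The line lies between the third quartile and the 95th percentile for RPE1 set 1 over HCT116 (1.34) and for the RPE1 sets against each other (1.60). For RPE1 set 2 over HCT116 (2.14) it lies above the 95th percentile.

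Other pairs within TERT passed the same limit. Of 38 overlapping pairs with enough HCT116 reads, 9 were at least 25% above HCT116 in both RPE1 sets (23.7%, against 11.6% of autosomal pairs), and the exon 2 pair was 1 of these 9. With 10 to 20 HCT116 reads the count was 8 of 21 (38.1%, against 17.1%). Over the whole locus the count was 125 of 943 pairs, or 13.3%. At 50% above HCT116 in both sets, 2 of 38 TERT pairs passed (5.26%, against 3.53%), those starting at 1279001 and 1288001. The pair from 1288001 to 1290000 held 27, 65 and 16 reads and gave ratios of 1.63 and 1.98. That pair lies outside exon 2, and what else it holds was not analysed here.

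Single bins varied widely around 1. Over the 37 TERT bins with at least 5 HCT116 reads, the ratio of RPE1 to HCT116, both over their flanks and with the RPE1 sets added, ran from 0.304 to 2.31 with a median of 0.945. This limit drops bins that are low in HCT116, and so trims the upper side. The 5 bins dropped with 4 HCT116 reads each had ratios of 1.52 to 2.20, and over the 42 bins with any HCT116 read the median was 1.11. The lower exon 2 bin was the highest of these 42, at 2.31 (0.906 to 7.51). Of the 37 bins, next came the bin from 1289001 to 1290000, with 18, 52 and 11 reads and a ratio of 1.93 (1.02 to 4.05), and the bin from 1267001 to 1268000, with 10, 21 and 5 reads and 1.88 (0.725 to 6.20). The upper exon 2 bin was at 1.49 (0.744 to 3.30), below all of the 5 dropped bins.

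The lowest ratio was in the bin from 1283001 to 1284000, with 8, 13 and 21 reads and a ratio of 0.304 (0.158 to 0.585). The bin from 1274001 to 1275000 followed, with 9, 3 and 10 reads and 0.364 (0.144 to 0.942), and then that from 1286001 to 1287000, with 14, 24 and 20 reads and 0.577 (0.327 to 1.05). The lowest ratio was therefore farther from 1, as a fold, than that of either exon 2 bin. A further bin, from 1264001 to 1265000, was picked out after its values were seen. It held 6 and 17 reads in the RPE1 sets and 0 in HCT116. With 3 reads put in place of 0, RPE1 with its sets added would be at 2.33 times HCT116, both over their flanks. This value leaves out the counting error of RPE1 and is not a lower bound.

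The columns in which the exon 2 reads fell were compared with those of the rest of TERT, since a copy inserted elsewhere would replicate with its own site. In RPE1 set 1, columns A, B and C held 14, 6 and 1 of the exon 2 reads, in RPE1 set 2 they held 27, 31 and 8, and in HCT116 6, 9 and 0. Column C took 4.76% of exon 2 reads in RPE1 set 1 (0.120 to 23.8%) against 17.6% in the rest of TERT (14.4 to 21.1%). In RPE1 set 2 it took 12.1% (5.38 to 22.5%) against 27.4% (24.7 to 30.2%). In HCT116 it took 0 of 15 reads, which allows a share of up to 21.8%, against 11.0% (8.36 to 14.2%).

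Column C was thus lower in exon 2 than in the rest of TERT in all sets, by 12.8 and 15.3 percentage points in the RPE1 sets and by 11.0 in HCT116. The intervals were apart in RPE1 set 2 and overlapped in the other sets. The mean difference in RPE1, -14.0 ± 1.74 points (SD, n = 2), lay farther from 0 than that of HCT116 by less than the counting error of the HCT116 share. Column A was higher in exon 2 by 17.8 and 7.23 points in the RPE1 sets and by 4.24 in HCT116, and against the flanks its difference was 10.1, -5.55 and -3.35 points. A column pattern of exon 2 that marks RPE1 off from HCT116 was not detectable with 15 HCT116 reads.

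The locus as a whole has a replication profile of its own, seen in 50 kb windows after each column was scaled to the same autosomal total. An even spread would then give each column the same share. In each set, column A was lower over TERT than in either flank as a whole. Single windows were lower still. Of the 20 other windows, 4, 1 and 2 had less of column A than the window that holds TERT, in RPE1 set 1, set 2 and HCT116. Over the gene, column A held 35.1, 26.1 and 41.0% of scaled reads in RPE1 set 1, set 2 and HCT116, a difference from the flanks of -7.19, -11.1 and -7.46 percentage points. The mean over RPE1 was 30.6% ± 6.38 (SD, n = 2), so that HCT116 lay above both sets. Without scaling the shares were 49.5, 34.1 and 35.9%, and HCT116 lay between the RPE1 sets. Column B held 53.7, 44.0 and 42.8% and column C 11.2, 29.9 and 16.2%. In column C the RPE1 sets differed from each other by more than HCT116 differed from either.

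Among autosomal windows, the one that holds TERT, from 1250001 to 1300000, was near the middle in column A. Its share of column A was 35.6, 25.6 and 40.6%, above that of 60.4, 50.0 and 65.3% of 53706 windows. Its share of column B, 52.8, 43.7 and 43.9%, was above that of 89.7, 77.3 and 76.2% of windows. For column C, its share of 11.6, 30.7 and 15.5% was above that of 38.8, 54.2 and 14.7% of windows. In RPE1 set 2 alone, this column C share was the highest of the locus. After scaling, column B thus held the largest share of this window in each set, in HCT116 by 43.9 against 40.6% in column A. Without scaling, column A held 49.5% and column B 33.4% of the TERT reads of RPE1 set 1, so the leading column depended on the scaling there.

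**Figure D4:**
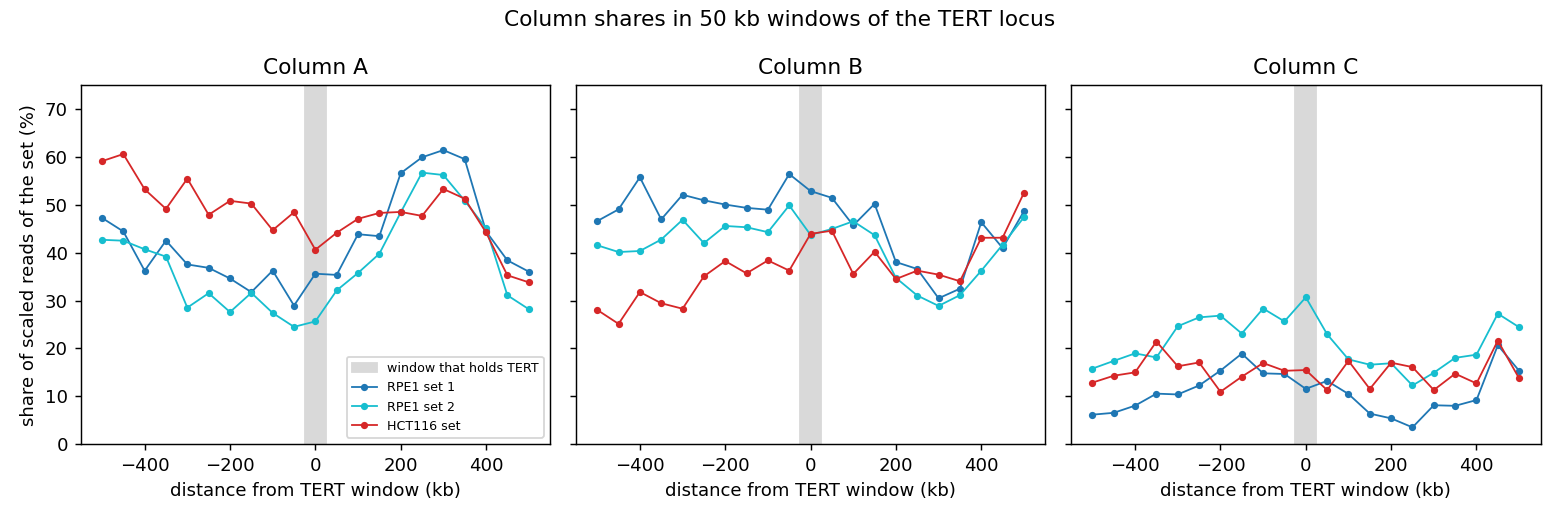
Share of scaled reads held by columns A, B and C in the 21 windows of 50 kb across the locus, against distance from the window that holds TERT in kb; each line is 1 set. In column A both RPE1 sets fall towards TERT, with minima of 28.9 and 24.5% in the window below it, and rise to 61.4 and 56.7% above it, while HCT116 is highest near the lower end, at 60.6%.

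The flanks of TERT did not behave alike in the lines. In RPE1, column A fell from 47.3 and 42.7% in the lowest window, from 750001 to 800000, to minima of 28.9 and 24.5% in the window from 1200001 to 1250000, next to TERT. It then rose to 61.4% in the window from 1550001 to 1600000 in set 1 and to 56.7% in that from 1500001 to 1550000 in set 2, and ended at 36.0 and 28.2% in the last window, up to 1800000. HCT116 began higher, at 59.1%, with its maximum of 60.6% from 800001 to 850000. It stood at 48.4% in the window where RPE1 had its minima, and its own minimum, 33.8%, was in the last window.

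Over the whole flanks, column A held 37.3 and 33.2% below TERT and 48.0 and 41.8% above it in the RPE1 sets, so that the upper flank was higher by 10.8 and 8.58 points, a mean of 9.67 ± 1.54 (SD, n = 2). In HCT116 it held 51.7% below and 45.1% above, a difference of -6.53 points. Column B ran the other way, with -8.70 and -4.83 points in the RPE1 sets and 7.16 in HCT116. The signs were the same in both RPE1 sets and opposite in HCT116, and the lines were farther apart than the RPE1 sets were from each other. Whether columns A and B hold the same fractions in both lines is not known, so this contrast is between columns of like position.

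The genes on both sides of TERT are given by order alone, from the RefSeq table of GRCh38, since the files use hg19. Order does not show which of them lie within the flanks. Next to TERT on the lower side is SLC6A18, then SLC6A19, both of the family of amino acid and transmitter carriers, then SLC12A7, a cotransporter of potassium and chloride, and NKD2, an inhibitor of Wnt signalling. On the upper side the first named genes are CLPTM1L, SLC6A3, the dopamine transporter, LPCAT1, an enzyme of phospholipid synthesis, and MRPL36, a protein of the mitochondrial ribosome. Values for these genes, and for other genes of telomerase and of the telomere-binding shelterin complex, were not analysed here, since no coordinates of the files' build were used for them.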

How the data were processed

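The submitters' processing notes name the aligner Bowtie2, the tools SAMtools 1.2 and bedtools 2.25, and hg19, without their roles. Per the labels, the tables were named as free of duplicates; the sources used here do not say how duplicates and multiply mapping reads were treated. Either can change counts in repeats and in exons with copies elsewhere. The authors deposited whole-number read counts per 1 kb bin, not scaled, 3 columns per set. Columns were assigned to sets from the labels and to no fraction.

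Reads were summed over the columns of a set. Intervals were Clopper-Pearson for shares and levels, and exact conditional intervals of a 2 by 2 table of reads for ratios of ratios (scipy 1.17.1). For shares, columns were scaled to equal autosomal totals, except for exon 2, where unscaled reads were used; autosomal windows needed 25 bins with reads and 30 reads in each set. The pair measure was tested on simulated data. Bins named are those of exon 2, the gene start, and the 3 highest and 3 lowest of TERT with at least 5 HCT116 reads; the 2 bins of highest reads and the bin with 0 HCT116 reads were added after their values were seen. The region, lists and measures were chosen with earlier results of these data known. The planned comparison over all exons, and genes of like pattern, were not run, as they need coordinates on hg19.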

Additional observations from a re-analysis of the deposited data

Results flagged for a closer look

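The difference in the shares of columns A and B between the upper and lower flank of TERT had opposite signs in the lines. For column A it was 10.8 and 8.58 percentage points in RPE1 sets 1 and 2 and -6.53 points in HCT116. For column B it was -8.70 and -4.83 points in the RPE1 sets and 7.16 points in HCT116. For column C the sign was the same in all sets, at -2.06 and -3.75 points in the RPE1 sets and -0.63 in HCT116. The difference between the lines was not tested, because HCT116 has 1 set.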

How the results depend on the processing

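Of 36 alternative values, 23 stayed within the spread of the RPE1 sets, the HCT116 counting interval or, for shares of pairs, 1.5 times; 13 moved. No value was called by a test, so none could lose a call, but signs and orders did turn: the HCT116 difference of exon 2 in column A went from 4.24 to -3.35 points against the flanks, within its counting interval. The level of TERT over its flanks in RPE1 was 1.39 with columns scaled to equal totals and 1.37 with 200 kb flanks. Against all autosomal bins with reads it was 1.197. The cause was not tested. This mean covers unlike sets. Against all autosomal bins, TERT stood at 1.10, 1.46 and 1.28 in RPE1 set 1, set 2 and HCT116. The flanks stood at 0.820, 1.12 and 0.991. Without extreme and empty bins, the level of TERT over its flanks was 1.15 in RPE1 and 1.10 in HCT116, since the 2 high bins were among those left out. The exon 2 ratio of RPE1 to HCT116 was 2.23 with the lower bin alone. With both RPE1 sets kept, its other alternatives ran from 1.34 (upper bin) to 1.86 (column A). Column C could give no ratio, as HCT116 had 0 reads there. Adding the RPE1 sets, and pairs with 10 to 20 HCT116 reads, were chosen after the data were examined. Without scaling, column A held 41.8% of TERT reads in RPE1 and 35.9% in HCT116, which turns the order of the lines, and column C held 10.7% in HCT116, because column totals are unequal. Against the flanks, the exon 2 difference in RPE1 was 2.26 points in column A and -8.48 in column C. The share of autosomal pairs past the limit was 3.53% at 1.5 times and 2.74% with at least 20 HCT116 reads. With each RPE1 set left out, the level of TERT ranged from 1.31 to 1.35 and the exon 2 ratio from 1.29 to 1.99; these lie within the SD of the sets by construction. The 15 HCT116 reads in exon 2 limit every comparison of that exon. No paired analysis was possible because HCT116 has 1 set, whose table has the number of RPE1 set 2, so that the lines share 1 set number only.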
